A study of Rattus norvegicus with 6 samples.

Results

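The genes described here are 36 microglia and innate immune genes, taken by their rat symbols from the gene models in the count files, where all 36 were found among 38445 genes. RNA-seq was performed on the amygdala of adult male wild-type Sprague Dawley rats that had received an intraperitoneal injection of saline (control) or of ethanol at 1 g/kg, and tissue was taken 1 h later. Each group had 6 rats, and the RNA of 2 rats was pooled for each library, so that each group had 3 libraries. A pool hides the difference between its 2 rats, and the spread given below is therefore between pools. The libraries were stranded mRNA libraries read from one end for 100 nt on 3 lanes, and 62576504 to 70755739 reads were assigned to genes in each. Levels are given as CPM, the count scaled to the size of the library, and a floor of 3 counts lay between 0.0422 and 0.0473 CPM in these libraries.

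Microglia are the resident macrophages of the brain. They survey the tissue through receptors for nucleotides, for the neuronal chemokine fractalkine and for the growth factors CSF1 and IL-34, and they remove debris and synapses with the help of complement C1q and lysosomal proteases. Toll-like receptors and the alarmin HMGB1 feed into NF-kB, which controls transcription of the cytokines and chemokines, and ethanol has been studied in brain as a stimulus of this pathway.

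The genes that define microglia were well detected in all 6 libraries, and the amygdala neuron genes Prkcd, Crh, Tac1, Sst, Ppp1r1b, Penk and Cyp26b1 all passed the filter on low counts. Markers of lymphocytes and neutrophils were nearly absent, and no list of monocyte markers was examined. The summed level of 8 T and B lymphocyte genes was 0.338 to 0.761 CPM, and that of 5 neutrophil genes was 0.919 to 1.51 CPM. The genes of border macrophages, which share part of the microglial program, summed to 19.4, 17.3 and 31.5 CPM in control libraries 1, 2 and 3 and to 22.2, 28.6 and 26.6 CPM in ethanol libraries 1, 2 and 3. Choroid plexus was the cell type that set libraries apart. Its 9 genes summed to 525.9, 1141 and 901.8 CPM in the control libraries but to 12.1, 13.3 and 487.7 CPM in the ethanol libraries, so that ethanol libraries 1 and 2 held little choroid plexus RNA and ethanol library 3 nearly as much as control library 1. The transcription factor Otx2 was at or near 0, whereas the transport protein Ttr was at 461.5, 995.3 and 816.6 CPM in control and at 5.42, 4.34 and 425.1 CPM in ethanol libraries. Oligodendrocyte genes varied within both groups, from 3278 to 7936 CPM in control libraries and from 4063 to 9222 CPM in ethanol libraries.

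**Figure D1:**
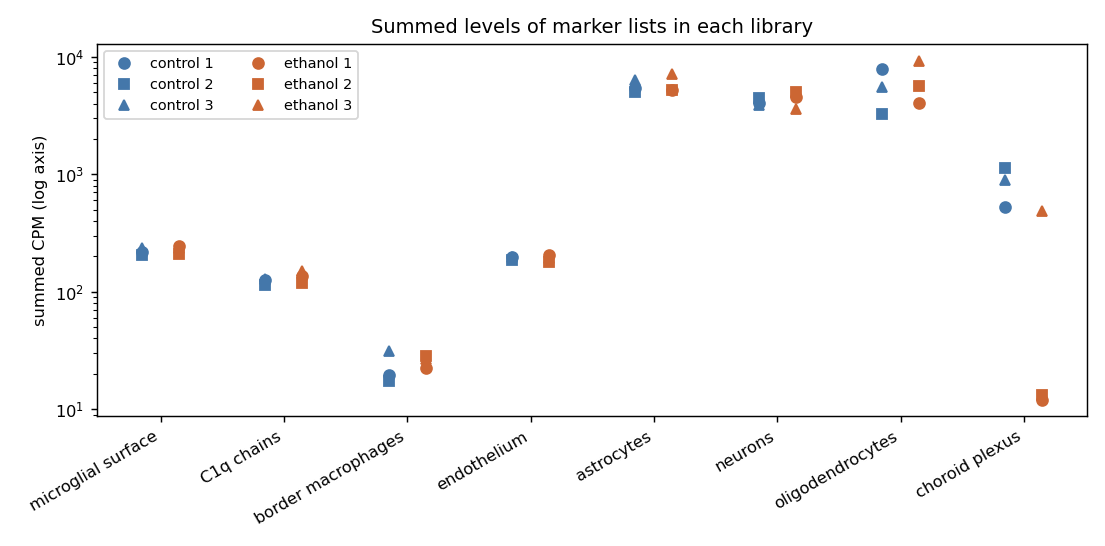
Summed CPM (log axis) of marker lists for 8 cell types or gene groups in each library, with control libraries in blue, ethanol libraries in orange and one symbol for each replicate number. Microglial surface genes stayed between 203.6 and 245.8 CPM in the 6 libraries, while the choroid plexus sum ran from 12.1 to 1141 CPM.

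Promoter sequence was available for 26 of the 36 genes, as the 250 bases upstream of the annotated start in RefSeq on the rat build GRCr8. The 150 bases next to the start are shown 5′ to 3′ on the gene's strand for the gene with the highest level (Ctss), for 2 genes of the clustered C1q chains, and for the 4 genes with a promoter entry among the 5 that had the smallest p-values in the comparison below. Capitals mark matches to motifs known from myeloid and immune promoters, searched on both strands. These motifs were GAGGAAGT, a site of the myeloid factor PU.1, its ETS core GGAAGT, the interferon-stimulated response element (GAAA, any 2 bases, GAAA), the NF-kB site (GGGA, any 2 bases, TTCC) and the TATA box TATAAA.
Ctss, chr2:185775246-185775395, plus strand: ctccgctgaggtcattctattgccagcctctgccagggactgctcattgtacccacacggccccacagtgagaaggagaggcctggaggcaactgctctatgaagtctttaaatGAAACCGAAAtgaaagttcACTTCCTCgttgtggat
C1qa, chr5:154419934-154420083, minus strand: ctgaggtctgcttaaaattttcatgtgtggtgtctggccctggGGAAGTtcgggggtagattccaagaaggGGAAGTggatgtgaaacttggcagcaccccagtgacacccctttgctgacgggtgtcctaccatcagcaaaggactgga
C1qb, chr5:154407828-154407977, minus strand: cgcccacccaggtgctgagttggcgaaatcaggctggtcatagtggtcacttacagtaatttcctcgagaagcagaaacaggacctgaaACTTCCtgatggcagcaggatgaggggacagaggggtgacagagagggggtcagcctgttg
Irf8, chr19:65699134-65699283, plus strand: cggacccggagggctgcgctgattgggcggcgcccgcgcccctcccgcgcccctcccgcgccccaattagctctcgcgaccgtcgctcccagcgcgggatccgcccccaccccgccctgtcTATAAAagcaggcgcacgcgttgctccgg
Tlr2, chr2:171504558-171504707, minus strand: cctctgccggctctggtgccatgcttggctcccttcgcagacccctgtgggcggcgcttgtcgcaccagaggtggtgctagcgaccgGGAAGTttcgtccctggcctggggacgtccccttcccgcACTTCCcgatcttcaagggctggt
Tlr7, chrX:30644276-30644425, plus strand: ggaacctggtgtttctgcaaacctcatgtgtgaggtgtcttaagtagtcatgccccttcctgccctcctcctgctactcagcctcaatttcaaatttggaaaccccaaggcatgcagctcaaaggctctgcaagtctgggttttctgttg
Il1b, chr3:137036582-137036731, minus strand: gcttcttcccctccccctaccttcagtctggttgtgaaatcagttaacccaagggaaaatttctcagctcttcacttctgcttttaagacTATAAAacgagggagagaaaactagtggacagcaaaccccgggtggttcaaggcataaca

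The ETS core, which lies within the longer PU.1 site, was the most frequent of the 5 motifs in the 26 promoters. It was present in 9 of them (34.6%), those of Tlr2, Ctss, Tlr4, Laptm5, C1qb, C1qa, Cd68, Ptprc and Tnf, against 19.5% of the 27457 promoters of the same length in the table. The full PU.1 site was present in the promoter of Ctss alone (3.85%, against 2.04% of all promoters). The interferon element was found in Ctss and Myd88 (7.69%, against 3.29%), and the NF-kB site in Il6 (3.85%, against 1.07%). A TATA box was present in 6 promoters (23.1%, against 13.1%), which were those of Ctss, Il1a, Il1b, Laptm5, Irf8 and Tnf. In the sequences above, Ctss thus carried an interferon element next to a PU.1 site, C1qa and Tlr2 carried 2 ETS cores each, and the Tlr7 stretch held none of the motifs. Each match is a description of the letters in the window.

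Levels of the 36 genes spanned more than 3 orders of magnitude, and 29 of them reached at least 1 CPM in every library. Compared per length of exon (RPKM, the CPM per kilobase of exon, mean of the 6 libraries), the lysosomal protease gene Ctss was the highest at 236.8 RPKM. It was followed by C1qa (66.9 RPKM), C1qb (31.5 RPKM), Csf1r (26.6 RPKM), Cx3cr1 (21.5 RPKM), C1qc (21.1 RPKM) and Hmgb1 (20.5 RPKM). The levels of Cx3cr1, C1qc and Hmgb1 lay within the spread between libraries and their order is therefore not fixed. The transcription factor Irf8 (3.08 RPKM) and the receptors Tlr2 (1.496 RPKM) and Tlr7 (1.24 RPKM) were in the lower part of the order, and Tmem119 (7.91 RPKM) was near its middle. The cytokines and chemokines formed the bottom of the list, with Il1a at 0.616 RPKM, Il1b at 0.149 RPKM, and no read for Tnf in any library.

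**Figure D2:**
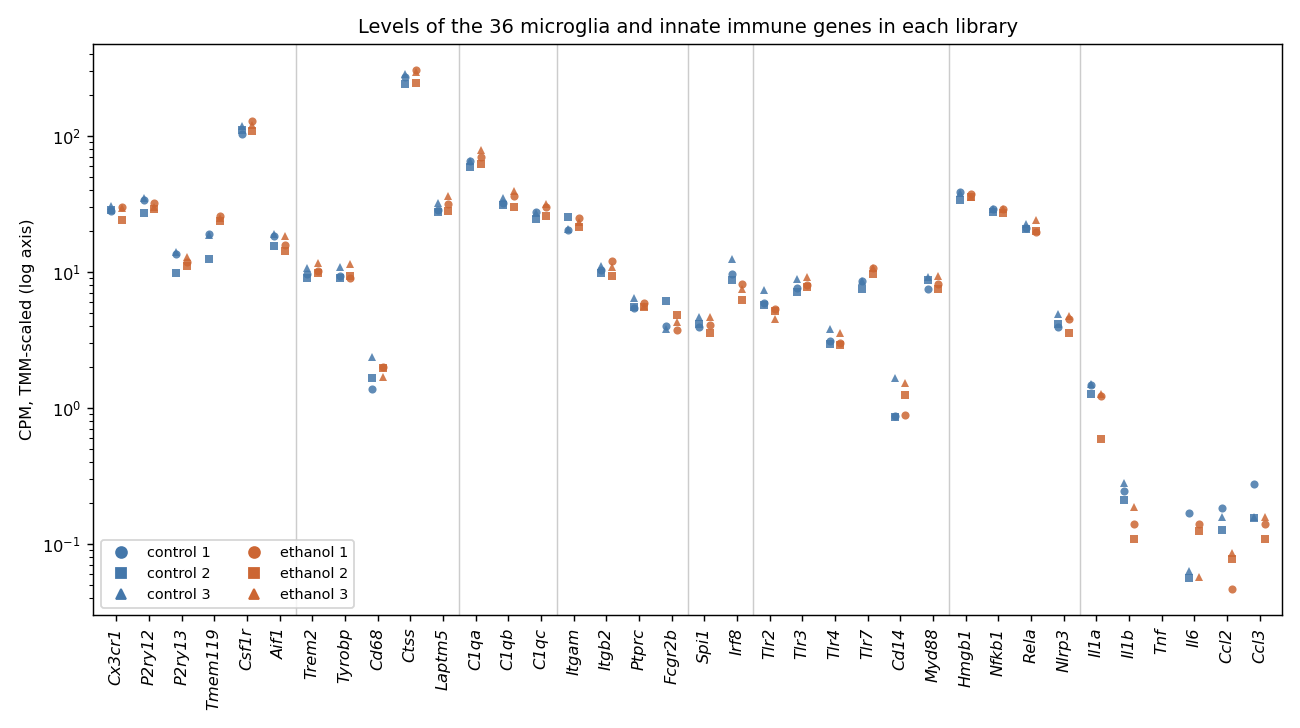
CPM (log axis) of the 36 genes in each of the 6 libraries, grouped from left to right by role, with control libraries in blue and ethanol libraries in orange. Ctss and Csf1r were the genes above 100 CPM in every library, the cytokines and chemokines other than Il1a were below 1 CPM, and Tnf has no point because it had no count.

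Ethanol and control libraries were then compared to ask whether the microglial and innate immune transcripts differed 1 h after the injection. At the adjusted p threshold of 0.2, the quasi-likelihood test of edgeR (p-values adjusted by Benjamini-Hochberg) called 0 of the 33 genes that passed the filter, and 0 of all 18141 genes tested (0%). The adjusted p of each of the 33 genes was 0.9999, and the smallest over all genes was 0.818. An unadjusted p below 0.05 was reached by 5 of 33 genes (15.2%), against 4.15% of all genes tested. Of these, Tmem119 and Tlr7 were higher after ethanol (1.57% of all genes tested had this direction and p) and Irf8, Tlr2 and Il1b were lower (2.57%). Il1b, with fewer than 10 reads in ethanol libraries 1 and 2, passed the filter through its control libraries. The same 5 genes were the ones whose control and ethanol libraries did not overlap, against 8.85% of all genes tested (3.66% higher and 5.19% lower after ethanol). Each of the 5 had an exact two-sided permutation p of 0.1, the smallest that 3 libraries against 3 allow. Groups without overlap give this p by themselves. Both properties come from the values that gave the 5 genes their unadjusted p, so neither adds support. Leaving out control library 3 left 2 of the 5, Tmem119 and Tlr7, and leaving out control library 2 gave 7. In a fit with the choroid plexus level as a covariate, which was added after the data had been seen, 3 genes had an unadjusted p below 0.05, namely C1qa, Tlr2 and Tlr7. The median log2 fold change of the 33 genes was 0.13 in the covariate fit, where the median over all genes tested was not computed. The share of all genes at this p was not counted with the covariate or with a library left out, so nothing is read from these counts. In bulk tissue, fewer microglia and less RNA per cell cannot be told apart.

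The other 28 genes had log2 fold changes between -0.52 and 0.15, with a smallest unadjusted p of 0.128. Of the 33 genes, 15 had a log2 fold change above 0 and 18 below, the median was -0.01 (0.01 over all genes tested), and 26 lay within 0.2 of 0. The 95% interval lay within 0.4 of 0 for 23 of the 33 genes. Within groups, the SD of log2 CPM had a median of 0.155 for the 33 genes and of 0.136 for all genes tested. It ranged from 0.0528 for Nfkb1 to 0.468 for Cd14.

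**Figure D3:**
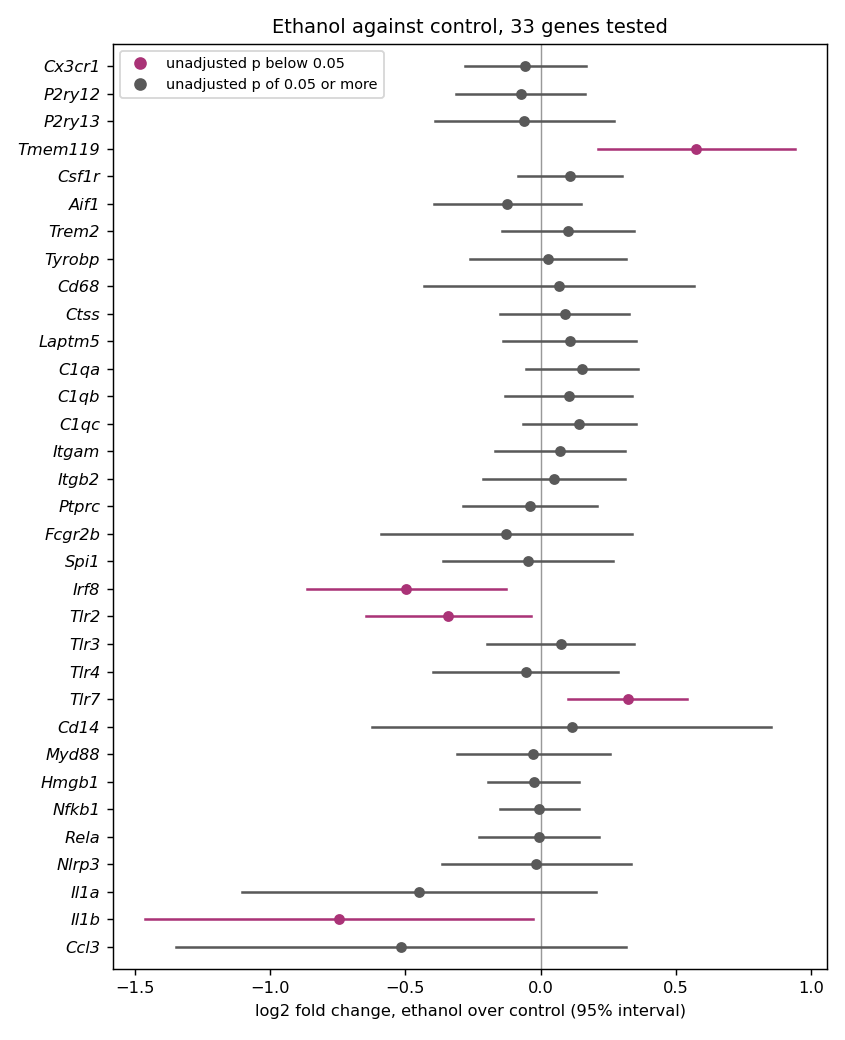
Log2 fold change of ethanol over control with its 95% interval for the 33 genes tested, grouped by role, with the 5 genes at an unadjusted p below 0.05 in purple. Tmem119 (0.57) and Tlr7 (0.32) lie above 0, Irf8 (-0.50), Tlr2 (-0.34) and Il1b (-0.74) lie below 0, and most other intervals are centred near 0.

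Tmem119, which encodes a transmembrane protein used to tell microglia from other macrophages, had the smallest p of the surface identity genes. The gene lies on chr12:48598498-48605704 (Rnor_6.0, plus strand, 3 exon blocks) and is entry 304581 of the annotation. Its level was 19.2, 12.4 and 18.8 CPM in control libraries 1 to 3 and 26.1, 23.9 and 25.2 CPM in ethanol libraries 1 to 3. All 3 ethanol libraries thus lay above the highest control library, and control library 2 was well below the other controls. The group means were 16.8 ± 3.82 and 25.0 ± 1.11 CPM (SD, n = 3), and the log2 fold change was 0.57 (SE 0.16, 95% interval 0.21 to 0.94, edgeR unadjusted p = 0.00684, adjusted p = 0.9999). Without control library 2 the log2 fold change was 0.40. With the choroid plexus covariate the log2 fold change of Tmem119 was 0.52 (SE 0.25, edgeR unadjusted p = 0.0736). The choroid plexus level was lower in every ethanol library than in any control library. Its part in the Tmem119 difference therefore cannot be told apart from that of the treatment.

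The remaining surface identity genes did not separate the groups. Csf1r, the receptor on which microglia depend for survival, had the highest level per length among them. It was at 103.7, 110.0 and 118.4 CPM in control libraries and at 129.5, 108.4 and 120.2 CPM in ethanol libraries, with a log2 fold change of 0.11 (SE 0.08, 95% interval -0.08 to 0.30). Cx3cr1, the fractalkine receptor, was at 29.1 ± 1.39 CPM in control and 28.0 ± 3.35 CPM in ethanol libraries. The purinergic receptors P2ry12 and P2ry13, through which microglia sense ADP, had log2 fold changes of -0.07 and -0.06. That of Aif1, which encodes the actin-binding protein Iba1, was -0.12. The summed level of the 6 surface genes was 216.8, 203.6 and 236.5 CPM in control libraries and 245.8, 210.9 and 236.5 CPM in ethanol libraries, which overlapped.

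Because Tmem119 and Csf1r are both markers of microglia, their ratio was formed in each library, a choice made after the values had been seen. Tmem119 amounted to 18.5, 11.3 and 15.9% of the Csf1r CPM in control libraries and to 20.1, 22.0 and 20.96% in ethanol libraries, and the groups did not overlap. For Irf8 this ratio was 9.29, 8.01 and 10.6% in control and 6.32, 5.78 and 6.24% in ethanol libraries. The ratio of Tlr2 to Csf1r was 5.69, 5.25 and 6.22% in control and 4.13, 4.75 and 3.78% in ethanol libraries. The CPM of these 3 genes already separated the groups and Csf1r differed little, so the separation of the 3 ratios adds no support. The Tlr7 ratio overlapped between control (8.29, 6.89 and 7.27%) and ethanol libraries (8.22, 8.89 and 8.88%). That of Cx3cr1, whose CPM overlapped, was 27.2, 25.8 and 25.9% in control and 23.1, 22.2 and 24.8% in ethanol libraries, with no overlap. The Spi1 ratio was 3.80, 3.78 and 3.93% in control and 3.14, 3.31 and 3.88% in ethanol libraries, which overlapped. How many of all genes have a ratio to Csf1r without overlap was not counted.

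The 5 genes of the TREM2-DAP12 receptor and of lysosomes all had log2 fold changes slightly above 0, none with an unadjusted p below 0.05. Ctss, which encodes cathepsin S, was at 270.6, 242.5 and 284.9 CPM in control libraries. It was at 306.6, 245.9 and 296.0 CPM in ethanol libraries, with means of 266.0 ± 21.6 and 282.8 ± 32.4 CPM (SD, n = 3) and a log2 fold change of 0.09 (SE 0.10). Library 2 was the lowest of both groups and the ranges overlapped. Trem2, the lipid-sensing receptor, and Tyrobp, its adaptor DAP12, had log2 fold changes of 0.10 and 0.03. The lysosomal membrane genes Laptm5 and Cd68 had values of 0.11 and 0.07.

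The 3 chains of complement C1q, the recognition molecule of the classical pathway, are encoded by neighbouring genes on the minus strand of chromosome 5 in Rnor_6.0. They lie in the order C1qb (chr5:155246444-155251995), C1qc (chr5:155255013-155258631) and C1qa (chr5:155261254-155264101). C1qa was at 65.4, 59.4 and 65.8 CPM in control libraries and at 70.7, 62.6 and 78.5 CPM in ethanol libraries, and the groups overlapped. Its log2 fold change was 0.15 (SE 0.09, 95% interval -0.06 to 0.36), and those of C1qb and C1qc were 0.10 and 0.14. The chains kept near-constant proportions over the libraries. The C1qa CPM was 1.88 to 2.02 times the C1qb CPM in control libraries and 1.96 to 2.06 times in ethanol libraries, and the C1qc CPM was 0.777 to 0.854 times that of C1qb in control and 0.806 to 0.855 times in ethanol libraries. Without ethanol library 2, the lowest ethanol library for each chain, C1qa had a log2 fold change of 0.23 (edgeR unadjusted p = 0.0249) and C1qc of 0.22 (edgeR unadjusted p = 0.0284). Without ethanol library 3, the highest for each chain, the values were 0.07 for C1qa (edgeR unadjusted p = 0.392) and 0.09 for C1qc (edgeR unadjusted p = 0.386). Those of C1qb were 0.20 without ethanol library 2 and 0.02 without ethanol library 3. The size of the C1q difference thus depended on single libraries.

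The leukocyte integrin chains, CD45 and the inhibitory Fc receptor did not separate the groups. Itgam, the CD11b chain of complement receptor 3, was at 20.5, 25.4 and 20.8 CPM in control and at 25.1, 21.6 and 23.4 CPM in ethanol libraries, a log2 fold change of 0.07 (95% interval -0.17 to 0.31). Its partner chain Itgb2 had a value of 0.05 and Ptprc, which encodes CD45, of -0.04. Fcgr2b was at 4.04, 6.17 and 3.85 CPM in control and at 3.77, 4.80 and 4.31 CPM in ethanol libraries, with control library 2 far above the others. Fc receptor genes are close paralogs and reads mapping to several places were not counted, so the level of Fcgr2b is uncertain.

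Of the myeloid transcription factors, Irf8 was lower after ethanol and Spi1 was not separated. IRF8 is an interferon regulatory factor that microglia need for their development and that acts with PU.1, the product of Spi1. Irf8 (entry 292060, chr19:54314859-54336643, Rnor_6.0, plus strand) was at 9.63, 8.81 and 12.5 CPM in control libraries and at 8.18, 6.26 and 7.50 CPM in ethanol libraries. All ethanol libraries lay below the lowest control library, and control library 3 was the highest. The means were 10.3 ± 1.96 and 7.31 ± 0.971 CPM (SD, n = 3), with a log2 fold change of -0.50 (SE 0.16, 95% interval -0.87 to -0.13, edgeR unadjusted p = 0.0145, adjusted p = 0.9999). Without control library 3 the unadjusted p of Irf8 was 0.0512. Spi1 was at 4.25 ± 0.363 CPM in control and 4.11 ± 0.540 CPM in ethanol libraries (log2 fold change -0.05, 95% interval -0.36 to 0.27).

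Of the Toll-like receptors, Tlr7 was higher and Tlr2 lower after ethanol at an unadjusted p below 0.05, and the receptors were not tested against each other. Tlr7, an endosomal receptor for single-stranded RNA (entry 317468, chrX:28486836-28513004, Rnor_6.0, plus strand), was at 8.59, 7.57 and 8.61 CPM in control libraries and at 10.6, 9.64 and 10.7 CPM in ethanol libraries. The lowest ethanol library was above the highest control library. The means were 8.26 ± 0.594 and 10.3 ± 0.589 CPM (SD, n = 3), and the log2 fold change was 0.32 (SE 0.10, 95% interval 0.10 to 0.54, edgeR unadjusted p = 0.0102, adjusted p = 0.9999). Tlr7 stayed below an unadjusted p of 0.05 when any one library was left out.

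Tlr2, a cell surface receptor for bacterial lipoproteins (entry 310553, chr2:182840171-182846061, Rnor_6.0, minus strand), had the opposite direction. It was at 5.90, 5.77 and 7.36 CPM in control libraries and at 5.34, 5.14 and 4.54 CPM in ethanol libraries. The groups did not overlap, with the highest value in control library 3 and the lowest in ethanol library 3. The means were 6.35 ± 0.884 and 5.01 ± 0.420 CPM (SD, n = 3), with a log2 fold change of -0.34 (SE 0.13, 95% interval -0.65 to -0.04, edgeR unadjusted p = 0.0330, adjusted p = 0.9999). Without control library 3 the log2 fold change of Tlr2 was -0.22 and the unadjusted p was 0.129.

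Tlr4, the receptor for lipopolysaccharide, was at 3.29 ± 0.448 CPM in control and 3.16 ± 0.353 CPM in ethanol libraries, a log2 fold change of -0.06 (95% interval -0.40 to 0.29). Its co-receptor Cd14 varied most of all 33 genes within groups, with 0.872, 0.859 and 1.67 CPM in control and 0.888, 1.24 and 1.54 CPM in ethanol libraries. The interval of its log2 fold change ran from -0.62 to 0.85, so that a difference of Cd14 was not detectable at this spread. Tlr3, the endosomal receptor for double-stranded RNA, had a log2 fold change of 0.07. Myd88, the adaptor that most Toll-like receptors share, was at 7.46, 8.78 and 9.27 CPM in control and at 8.15, 7.57 and 9.32 CPM in ethanol libraries (log2 fold change -0.03, 95% interval -0.31 to 0.26).

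The alarmin, the NF-kB subunits and the inflammasome sensor were the most even group, with log2 fold changes from -0.03 to -0.01. Hmgb1, a nuclear protein that acts as a danger signal once released, was at 38.8, 33.9 and 38.3 CPM in control and at 37.8, 35.4 and 35.8 CPM in ethanol libraries. The interval of its log2 fold change was -0.19 to 0.14. Hmgb1 has processed pseudogenes in mammalian genomes, and since reads with several map positions were left out its level is uncertain. Nfkb1 was at 28.7 ± 0.863 CPM in control and 28.5 ± 1.19 CPM in ethanol libraries, and its log2 fold change of -0.01 had the interval -0.15 to 0.14. Rela, the transactivating subunit, was at 21.5 ± 1.13 and 21.3 ± 2.501 CPM, and Nlrp3, which senses damage and activates caspase-1, at 4.34 ± 0.499 and 4.28 ± 0.648 CPM.

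Cytokine and chemokine transcripts were scarce. The mean levels of Il1a, Il1b, Ccl2 and Ccl3 were lower in the ethanol group. That of Il6 was slightly higher (0.107 CPM against 0.0959 CPM in control), and Tnf had no read. Il1b, which encodes interleukin-1 beta (entry 24494, chr3:121876256-121882637, Rnor_6.0, minus strand), had 16, 15 and 18 reads in control libraries and 9, 7 and 13 reads in ethanol libraries. This was 0.245, 0.211 and 0.284 CPM against 0.140, 0.109 and 0.187 CPM, and the groups did not overlap. The log2 fold change of Il1b was -0.74 (SE 0.31, 95% interval -1.46 to -0.03, edgeR unadjusted p = 0.0435, adjusted p = 0.9999), and with DESeq2 the unadjusted p was 0.196. At so few reads the call depended on the test.

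Il1a, the neighbouring interleukin-1 alpha gene (chr3:121824712-121836122), had the highest level per length among the cytokines. It was at 1.47, 1.27 and 1.51 CPM in control and at 1.23, 0.591 and 1.28 CPM in ethanol libraries, where library 2 was low and library 3 overlapped the controls. Its log2 fold change was -0.45 (SE 0.28, 95% interval -1.11 to 0.20). Ccl3, which overlaps Ccl4 on the opposite strand, had 18, 11 and 10 reads in control and 9, 7 and 11 reads in ethanol libraries (log2 fold change -0.52, 95% interval -1.35 to 0.31). Like Il1b, Ccl3 had fewer than 10 reads in ethanol libraries 1 and 2 and passed the filter through its control libraries. The counting used strand, so the overlap does not mix the reads of Ccl3 and Ccl4.

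Tnf, Il6 and Ccl2 did not pass the filter on low counts. Tnf had 0 reads in all 6 libraries, which allows a level of up to 0.0422 to 0.0473 CPM per library as far as counting error goes. Il6 had 11, 4 and 4 reads in control and 9, 8 and 4 reads in ethanol libraries. Ccl2, a chemokine that attracts monocytes, had 12, 9 and 10 reads in control and 3, 5 and 6 reads in ethanol libraries, and the counts did not overlap. In a fit with no filter beyond 1 count the log2 fold change of Ccl2 was -1.12 (SE 0.45, unadjusted p = 0.0286, adjusted p = 0.983). The summed CPM of the 6 cytokines and chemokines was 2.34, 1.82 and 2.18 in control and 1.70, 1.01 and 1.77 in ethanol libraries, and most of it was Il1a.

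**Figure D4:**
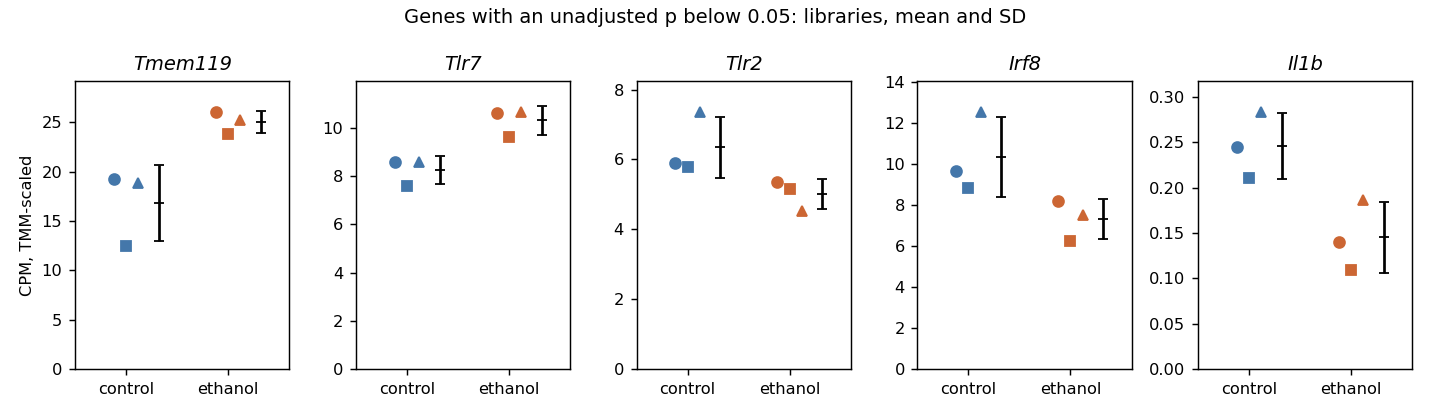
CPM of Tmem119, Tlr7, Tlr2, Irf8 and Il1b in each library (points), with the mean and SD of the 3 libraries of each group, on axes that start at 0. For each of the 5 genes, chosen by their unadjusted p, the control and ethanol points do not overlap.

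Much of the variation ran through the genes together and lay within groups. Of the 33 genes, 26 were above their own mean in control library 3 and 24 in ethanol library 3, but only 7 in control library 2 and 5 in ethanol library 2. The counts in control library 1 and ethanol library 1 were 10 and 19. The median deviation from the gene's mean ran from -0.11 in control library 2 to 0.11 in control library 3 and from -0.10 in ethanol library 2 to 0.12 in ethanol library 3, on the log2 scale. The genes thus shared a level in each library that differed as much between libraries of one group as between groups. How many of all genes tested lay above their own mean in each library was not counted. The shared level is therefore not known to be particular to these genes. The summed CPM of all 36 genes was 844.6, 789.6 and 902.3 in control and 930.2, 797.5 and 933.5 in ethanol libraries. Astrocyte genes were also highest in library 3 of each group, with 6300 CPM in control and 7188 CPM in ethanol library 3 and 5013 to 5425 CPM in the other libraries, and the part of tissue composition in the shared level was not tested.

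**Figure D5:**
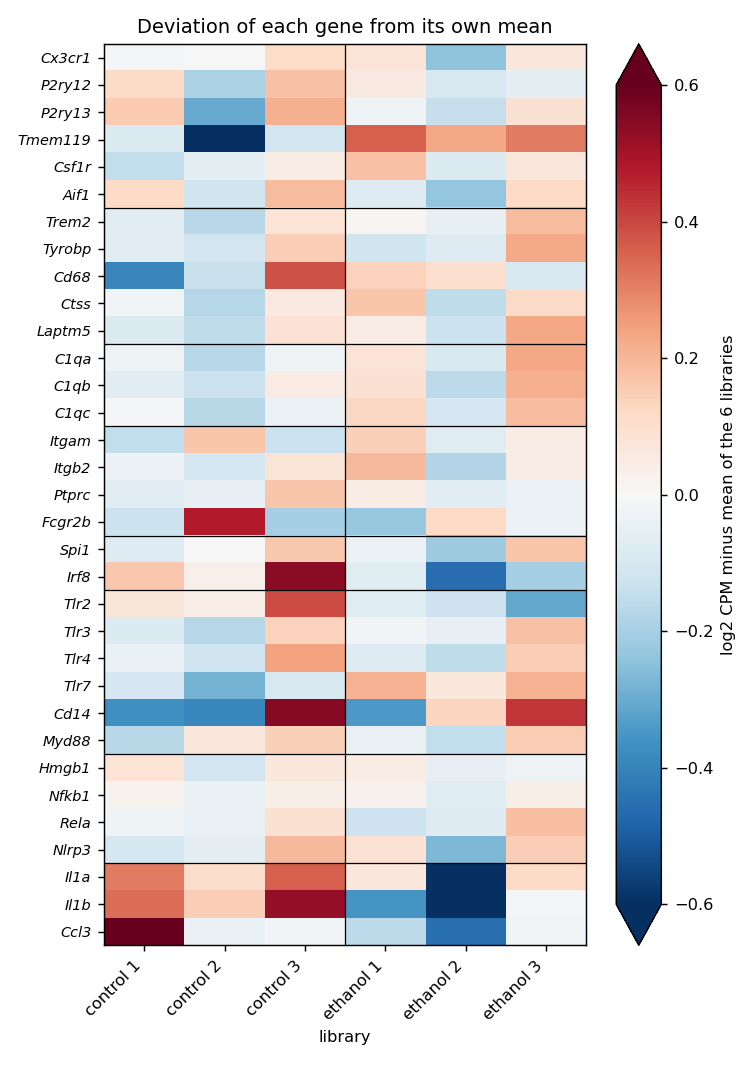
Log2 CPM of the 33 genes tested minus the mean of the 6 libraries (colour, red above and blue below the mean), with genes in rows by role and libraries in columns. Control library 3 and ethanol library 3 are mostly red (26 and 24 genes above their mean), library 2 of each group is mostly blue (7 and 5 genes above), and Tmem119, Tlr7, Irf8, Tlr2 and Il1b change colour between the groups.

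Wider lists of genes of the same pathways were examined in the same test, and in each of the 6 lists 0 genes had an adjusted p below 0.2. Among 31 other microglial genes, 2 were higher and 1 lower at an unadjusted p below 0.05, with a median log2 fold change of 0.00. Over all genes tested, 1.57% were higher and 2.57% lower at this p, and the other lists held 0 or 1 such gene in each direction, from which nothing is read about a list. Mertk, a receptor through which phagocytes engulf dying cells, was at 22.8, 28.1 and 26.8 CPM in control and at 35.3, 31.8 and 37.5 CPM in ethanol libraries. The groups did not overlap, and its log2 fold change was 0.43 (SE 0.10, edgeR unadjusted p = 0.00264). Mertk is also expressed by astrocytes. Selplg, which encodes a ligand of selectins, was at 32.6, 25.3 and 35.9 CPM in control and at 47.1, 35.3 and 40.3 CPM in ethanol libraries, and the groups overlapped. Cd33, an inhibitory sialic acid receptor, was lower in every ethanol library (8.10, 7.20 and 8.33 CPM) than in any control library (10.4, 8.64 and 11.3 CPM), with a log2 fold change of -0.36 (SE 0.12, unadjusted p = 0.0194).

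Among the pathway lists few genes stood out. None of the 13 complement and Fc receptor genes tested had an unadjusted p below 0.05, and 11 of the 13 had a log2 fold change above 0 (52.6% of all genes tested). Of 24 Toll-like receptor signalling genes, Chuk, which encodes the kinase IKK-alpha, was lower (log2 fold change -0.22, unadjusted p = 0.0353) and none was higher. Of 14 NF-kB target and feedback genes, Nfkbia was higher and none was lower. Nfkbia encodes the inhibitor IkB-alpha and was at 26.2, 24.6 and 23.5 CPM in control and at 26.6, 35.96 and 31.1 CPM in ethanol libraries, a log2 fold change of 0.33 (SE 0.11, unadjusted p = 0.0177). Ethanol library 1 was only just above the highest control library.

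Of 23 inflammasome and cytokine receptor genes, Nlrp1a, an inflammasome sensor, was higher (log2 fold change 0.44, unadjusted p = 0.0425) and none was lower. The highest of this list per length, the neuronal chemokine Cx3cl1, was at 374.9, 412.8 and 393.2 CPM in control and at 500.9, 496.2 and 384.3 CPM in ethanol libraries, and the groups overlapped. Ethanol libraries 1 and 2 held less choroid plexus RNA than ethanol library 3. They also held more neuron marker RNA (4584 and 5030 against 3585 CPM), and neither was tested as a cause. Of 16 interferon response genes, Mx2 was lower (log2 fold change -0.55, unadjusted p = 0.0409) although its groups overlapped, and none was higher.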

How the data were processed

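RNA-seq was performed on amygdala RNA of saline- and ethanol-treated rats (3 libraries per group, each pooled from 2 rats). Per the labels and file headers, the authors quality-trimmed the reads, aligned them with STAR 2.7.0f to Rnor_6.0 and deposited raw read counts per gene from featureCounts 1.6.3 (reverse-stranded, exons). Reads mapping to several places or overlapping several genes were not counted. The submitters' processing notes also name FastQC 0.11.8, R 3.6.2, edgeR and limma.

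Gene IDs were paired with symbols through a RefSeq table (29322 of 38445 matched). Genes were kept with edgeR's filterByExpr (minimum count 10, minimum total 15), scaled by TMM and tested with edgeR 4.0.16 (quasi-likelihood, R 4.3.3) on all 18141 genes kept, with Benjamini-Hochberg adjustment and a threshold of 0.2. CPM values are TMM-scaled, and log2 CPM used a prior count of 2. RPKM divided CPM by the summed exon length. Single genes were also compared with exact two-sided permutation tests. The depth of 62576504 to 70755739 assigned reads limits genes with few reads, and intervals and floors of 3 counts cover counting error only where they are not from the fit. Nothing in the labels names separate batches, and p-values measure the spread between pools.

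Alternatives were DESeq2 1.42.0, limma-voom (limma 3.58.1), edgeR's likelihood ratio test, other scaling factors, other filters, a replicate block and leaving out each library. The fit was tested on simulated data. Values in each library are given for the member of each role with the highest level per length, for members with an unadjusted p below 0.05 or with groups that do not overlap, and as counts for members below the filter. Of each wider list, genes with an unadjusted p below 0.05 (at most 4) and the one with the highest level are named, except that some of these are not reported here. Other genes named were chosen after their values were seen. The members and lists were chosen with earlier results of these data known, and the motifs after the values of the genes were known. Promoter sequences are from RefSeq (GRCr8), whereas gene positions are on Rnor_6.0.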

Additional observations from a re-analysis of the deposited data

How the results depend on the processing

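The 5 genes Tmem119, Tlr7, Irf8, Tlr2 and Il1b kept their direction under all alternatives run. They were chosen by their p and their groups did not overlap, so leaving out a library could hardly reverse them. All alternatives used the same counts, so neither the kept direction nor the tallies of p below add support. Their log2 fold changes ranged from 0.40 to 0.67 for Tmem119, from 0.26 to 0.37 for Tlr7, from -0.60 to -0.33 for Irf8, from -0.50 to -0.22 for Tlr2 and from -0.97 to -0.35 for Il1b. The unadjusted p stayed below 0.05 in 15 of 15 alternatives for Tlr7, 14 of 15 for Tmem119, 13 of 15 for Irf8, 11 of 15 for Tlr2 and 6 of 14 for Il1b. Counts at an adjusted p below 0.2 depended on the test. Of all genes, 0 were called by edgeR's quasi-likelihood test and by limma-voom, 75 by DESeq2, 77 by the likelihood ratio test and 1 with the choroid plexus covariate (added after seeing the data), and 0 to 83 with one library left out (83 without ethanol library 3, 4 without ethanol library 1). DESeq2 called 1 of the 36 genes, Tmem119 (adjusted p = 0.135), and 0 were called under the other alternatives. Mertk had an adjusted p of 0.0888 with DESeq2 and of 0.107 with the likelihood ratio test. An unadjusted p below 0.05 was reached by 3 of 33 genes with the covariate. With one library left out it was reached by 2 of 33 (without control library 3) to 7 of 34 (without control library 2). The share over all genes was not counted in these fits. The number whose groups did not overlap was 5 to 12 with one library left out (12 of 34, or 35.3%, without control library 2 and 11 of 34, or 32.4%, without ethanol library 2), but the share over all genes tested also went up, from 8.85% to 20.4% and 14.3%, and reached 27.2% without ethanol library 3, where it was 26.5% of the genes described here. These counts can include Ccl2, which entered the test when the filter was dropped, or when control library 2 or an ethanol library was left out.

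With the choroid plexus covariate the median log2 fold change of the 33 genes was 0.132, against -0.00731 in the main fit. The covariate thus moved values of the genes as a set, and not only of those that changed sign. The median over all genes tested was not computed with the covariate, so the move is not known to be particular to these genes. Signs changed in 37 of the 493 alternative values of the 33 genes, none among the 5 genes above. Changes larger than the median within-group SD of 0.155 occurred with the covariate for Aif1 (0.0566), Spi1 (0.18), Tlr4 (0.15), Myd88 (0.19), Rela (0.21), Nlrp3 (0.17) and, outside the 36, Cx3cl1 (-0.0617), without control library 1 for Cd68, without control library 2 for Fcgr2b, and without control library 1, control library 2 or ethanol library 3 for Cd14. With one library left out the values ranged from -0.102 to 0.316 for Cd68, from -0.249 to 0.124 for Fcgr2b and from -0.0844 to 0.5 for Cd14, and Cd14 was -0.0492 without control library 1 and -0.0523 without control library 2. The cause was not tested. Same-numbered libraries deviated together with correlations of 0.03, 0.39 and 0.21 over 14241 genes, and control library 1 correlated more with ethanol library 3 (0.31), so the numbers were not taken to pair the libraries. With a replicate block, 0 genes had an adjusted p below 0.2, 5 of 33 genes had an unadjusted p below 0.05, and the median log2 fold change was -0.01. The share of all genes at this unadjusted p was not counted with the block. These 5 were not the same 5, since with the replicate block C1qa came in (edgeR unadjusted p = 0.0432) and Tlr2 dropped out (edgeR unadjusted p = 0.0538).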

Other observations

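Mx1, an interferon-induced antiviral gene examined after its values were seen, varied more within groups than between them. It had 162, 2120 and 507 reads in control libraries 1, 2 and 3 and 211, 1402 and 351 reads in ethanol libraries 1, 2 and 3, or 2.48, 29.8 and 8.00 CPM against 3.29, 21.8 and 5.04 CPM. Hemoglobin Hba-a1, a marker of red blood cells, was higher in every ethanol library than in any control library (log2 fold change 0.44, edgeR unadjusted p = 0.0197, adjusted p above 0.2), as were 3.66% of all genes tested. The other erythroid genes tested, Hba-a2, Hbb and Alas2, did not separate the groups (log2 fold changes 0.35, 0.27 and 0.29). The summed erythroid genes were at 255.8, 171.8 and 290.8 CPM in control and at 297.4, 331.8 and 297.1 CPM in ethanol libraries.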
